A study of Mus musculus with 18 samples.

Results

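The olfactory receptor genes of the mouse were examined in bisulfite data from embryonic stem cells (ESCs). They were taken as the autosomal genes of the GENCODE vM1 annotation on the NCBIM37 genome whose symbol starts with Olfr, each with 1 kb on either side. The rule gave 1243 genes out of 34653 autosomal genes, of which 1106 were annotated as protein coding, 132 as pseudogenes and 5 as processed transcripts. Genes with at most 200 kb between them were joined, which gave 63 clusters on 17 chromosomes. Chromosome 2 held 349 of the genes, chromosome 7 held 261 and chromosome 9 held 135. The 23 clusters of 10 or more genes held 1103 genes, and 16 genes stood alone.

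Olfactory receptors are G protein-coupled receptors of the sensory neurons of the nose, and they form one of the largest gene families of the mouse. Their coding sequence lies in a single exon, and the genes sit side by side in clusters. Each mature neuron transcribes 1 allele of 1 receptor gene, while the other receptor genes are kept silent in heterochromatin. CpG methylation is copied to the new DNA strand by DNMT1 after replication, so that it is diluted with each division once the enzyme is gone.

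The 18 libraries of whole-genome bisulfite sequencing comprised 9 control libraries, whose genotype was labelled wild type, and 9 Dnmt1 KO libraries. The time points of both genotypes were days 1, 3, 6, 9 and 11, each with 2 replicates but for day 6, which had 1. According to the methods, Cre in floxed Dnmt1 ESCs was switched on with 4-hydroxytamoxifen (4OHT), and cells grew in serum with LIF. The labels named E14 as the strain throughout, whereas the methods describe the floxed cells as C57BL/6. The replicates were called biological, and p-values measure only the spread between these libraries.

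Between exons 4 and 5 of Dnmt1, control libraries held 2 to 18 calls and Dnmt1 KO libraries held 0, except for 2 calls in Dnmt1 KO day 1 replicate 2. Libraries held 7190722 to 11158414 calls in all, where 1 call is a single reading of a CpG as methylated or not. The regions of the receptor genes held 8590 to 13095 calls per library, or 191921 altogether over 23856 CpGs. The median receptor gene had 123 calls over the 18 libraries, so levels were read from sums over genes. Calls per CpG in receptor genes, relative to all autosomal CpGs, were lowest in control day 1 replicate 2, with a log2 ratio of -0.31, whereas the other 17 libraries lay between -0.07 and 0.07. By day, Dnmt1 KO minus control was 0.165 at day 1, which holds control day 1 replicate 2, and 0.0190 to 0.0588 at the other days. The log2 ratio averaged 0.02 in Dnmt1 KO and -0.04 in control over the days (two-sided exact permutation test within days, p = 0.0015, adjusted p = 0.0050). Without Dnmt1 KO day 1 replicate 1 or replicate 2 this difference no longer passed the threshold, with exact permutation p = 0.0988 and p = 0.0772. Of 26 alternatives, 23 kept direction and threshold. The difference ran from 0.0405 to 0.0955 over them, with a largest exact permutation p of 0.1219. The part of coverage in the results was not tested.

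The receptor genes were poor in CpGs. Their median length was 957 bp, and they held a median of 4.43 CpGs per kb, flanks included, against 12.8 in other protein-coding genes and 3.82 in vomeronasal receptor genes, which detect pheromones. In a window from 250 bp before to 50 bp after the annotated start, 34.4% of Olfr genes had no CpG at all, against 3.27% of other protein-coding genes. At least 10 CpGs lay in that window in 3 Olfr genes (0.241%), Olfr212, Olfr658 and Olfr750, and in 57.6% of other protein-coding genes. Of the 1106 Olfr genes with coding sequence, 632 (57.1%) had their annotated start at the first coding base, so that this window often does not show the promoter. The windows of 3 receptors chosen for their known roles are given as examples, not as typical starts, with each CpG in capitals and the strand of the gene. Olfr78 (chr7:109907936-109908235, minus strand) has been described as a receptor for short fatty acids also outside the nose, and Olfr16 (chr1:174886649-174886948, plus strand) is the receptor known as MOR23. Olfr17 (chr7:114240713-114241012, plus strand) is P2.
Olfr78: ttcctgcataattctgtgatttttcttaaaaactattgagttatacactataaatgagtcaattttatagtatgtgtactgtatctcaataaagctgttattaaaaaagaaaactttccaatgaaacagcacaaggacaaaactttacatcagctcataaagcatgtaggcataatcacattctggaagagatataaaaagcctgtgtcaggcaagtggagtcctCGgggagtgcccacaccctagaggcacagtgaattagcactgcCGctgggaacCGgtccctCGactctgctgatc
Olfr16: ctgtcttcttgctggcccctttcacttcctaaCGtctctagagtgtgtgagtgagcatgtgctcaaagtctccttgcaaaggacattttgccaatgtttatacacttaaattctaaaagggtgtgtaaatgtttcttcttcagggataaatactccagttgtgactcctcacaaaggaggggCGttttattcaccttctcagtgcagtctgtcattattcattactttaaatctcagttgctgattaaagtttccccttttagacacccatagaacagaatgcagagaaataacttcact
Olfr17: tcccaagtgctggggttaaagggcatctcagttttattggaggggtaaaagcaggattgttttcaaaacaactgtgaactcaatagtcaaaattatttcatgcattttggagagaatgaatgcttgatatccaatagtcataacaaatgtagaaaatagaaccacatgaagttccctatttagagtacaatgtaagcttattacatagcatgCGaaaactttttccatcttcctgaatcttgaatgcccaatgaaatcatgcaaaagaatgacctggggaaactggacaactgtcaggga
The 3 windows held 4, 2 and 1 CpGs, where the median over all Olfr windows was 1. In Olfr78 17 of 20 control calls in the window were methylated, and 0 of 6 were in Dnmt1 KO from day 6 on. Olfr16 had 7 of 9 against 0 of 8, and Olfr17 had 5 of 6 against 0 of 4. Taking 3 calls as the limit that a count of 0 allows, these Dnmt1 KO windows could be methylated at up to 50%, 37.5% and 75.0% in this order, which is counting error only.

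Receptor genes were highly methylated in control ESCs and lost most of it in Dnmt1 KO. Control libraries ranged from 77.0% to 83.2%, with a mean of 80.1% ± 2.10 (SD, n = 9). In Dnmt1 KO, the 2 libraries of day 1 were at 73.1% and 73.2% and those of day 3 at 29.1% and 30.8%. The day 6 library was at 16.9%, those of day 9 at 16.2% and 17.7%, and those of day 11 at 16.7% and 17.5%. At each day every Dnmt1 KO library was lower than every control library, and the Dnmt1 KO libraries of days 6, 9 and 11 overlapped. Averaged over the days, Dnmt1 KO differed from control by -49.6 percentage points (two-sided exact permutation test, p = 0.00077, the smallest this test can give, adjusted p = 0.0033 over 13 tests). From day 6 on, the mean of 17.0% ± 0.586 (SD, n = 5) was 21.2% of the control level. All autosomal CpGs were at 24.7% ± 0.573 (SD, n = 5), which was 32.7% of their control level.

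To allow for the low CpG density, each library's receptor genes were compared with autosomal CpGs outside them that had as many CpGs within 250 bp. This background was at 79.0% ± 2.42 (SD, n = 9) in control and at 22.9% ± 0.393 (SD, n = 5) in Dnmt1 KO from day 6 on. Control receptor genes lay above it in 9 of 9 libraries, by 0.534 to 2.30 points with a mean of 1.15 (exact sign-flip test, p = 0.0039, adjusted p = 0.0073), which was 2.41 with gene bodies alone and 0.578 with 2 kb flanks. Dnmt1 KO receptor genes were at 1.03 and -0.0547 points from it in the 2 day 1 libraries. In the 7 later Dnmt1 KO libraries they lay below it, with differences of -3.35 and -3.28 points at day 3, -5.67 points at day 6, -6.37 and -5.68 points at day 9, and -5.90 and -5.82 points at day 11 (exact sign-flip test, p = 0.0156, adjusted p = 0.0226). The sign-flip p of 0.0039 and that of 0.0156 are the smallest this test can give for these numbers of libraries. It takes libraries as independent, and whether libraries of different days shared a culture was not tested. The plot of levels by day shows each library. Averaged over the days, Dnmt1 KO differed from control in this measure by -5.18 points (exact permutation p = 0.00077, adjusted p = 0.0033), and all 9 Dnmt1 KO libraries were below the control libraries of their day. At day 1 the margin was narrow, with 1.03 and -0.0547 points in Dnmt1 KO against 1.08 and 1.06 points in control.

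**Figure D1:**
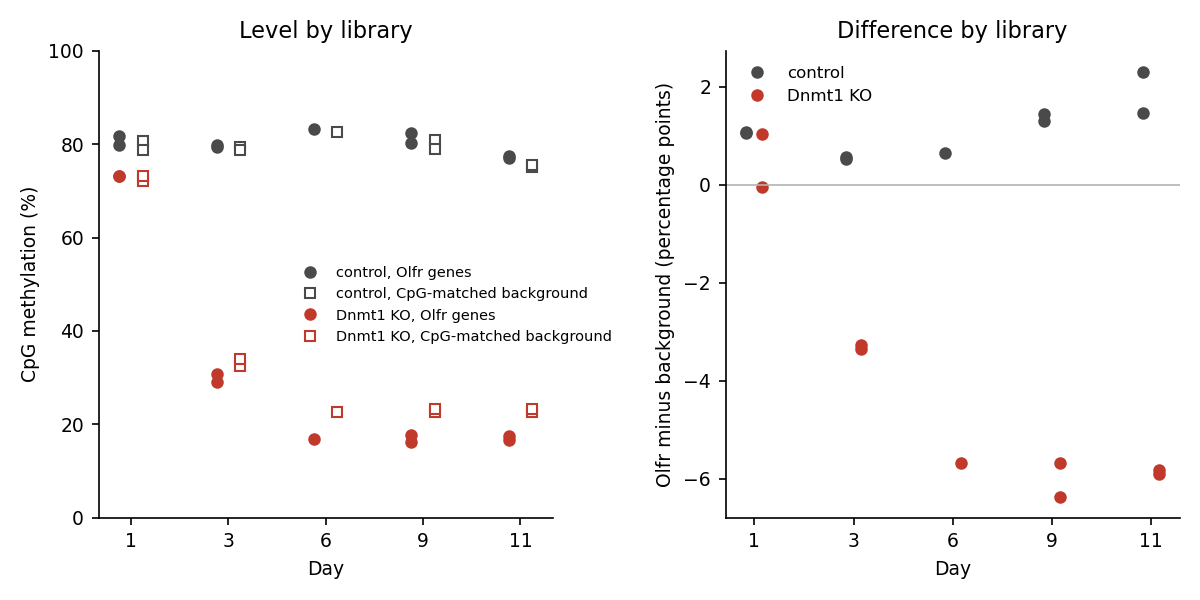
CpG methylation in percent of calls in Olfr genes (circles) and in their CpG-matched background (squares) by day, 1 point per library, with control in grey and Dnmt1 KO in red; the right panel gives the difference in percentage points. Dnmt1 KO libraries of days 6 to 11 lie at 16.2% to 17.7%, below a background of 22.6% to 23.3%, whereas the 9 control libraries lie above theirs.

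The difference from background was also read within classes of CpGs grouped by local density, where it depended on the class in both genotypes. For this, background cytosines with over 20 calls in any library were left out, and no receptor cytosine had as many. CpGs with no other CpG within 250 bp made up 8.43% of receptor CpGs and 3.32% of the background. From day 6 on, these lone CpGs were at 10.8% ± 1.08 (SD, n = 5) in receptor genes and at 16.3% ± 0.469 in the background of Dnmt1 KO. CpGs in the class of 5 to 6 CpGs were at 18% ± 1.08 against 26.2%. In each class up to 7 to 9 CpGs all 5 libraries had lower receptor genes. In the class of 10 to 14 CpGs the receptor genes were at 28.6% ± 2.60 against 28.2%, and in the class of 15 or more they were at 26.8% ± 3.49 against 12.8%. The class of 15 or more is wide, and 321 of its 1515 receptor CpGs had 25 or more CpGs within 250 bp. Density was not matched inside it, so its values in either genotype do not compare CpGs of equal density. Control receptor genes were also below the background in the sparsest classes, at 75.6% ± 2.98 against 78.8% ± 2.50 (SD, n = 9) for lone CpGs, 78.1% against 79.8% for 2 CpGs and 79.9% against 80.6% for 3 CpGs. They were above it in 0, 1 and 2 of 9 control libraries in these classes, and in 9 of 9 in each class from 7 to 9 CpGs upwards. The last class was less methylated in the background of control cells too, with 34.1% against 71.5% ± 6.34 in receptor genes. In both genotypes, lone CpGs of receptor genes were the least methylated of the classes up to 14 CpGs.

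**Figure D2:**
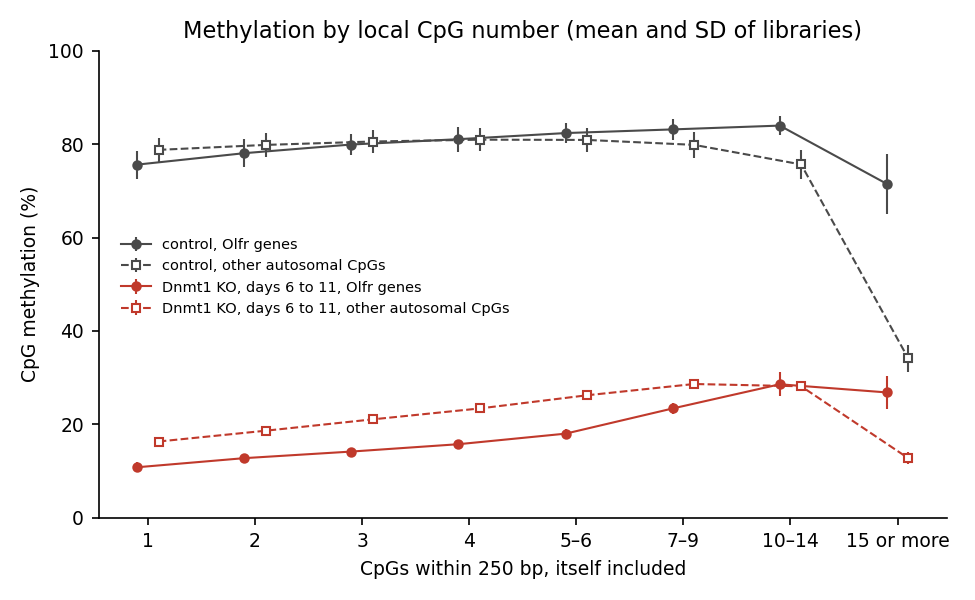
CpG methylation in percent against the number of CpGs within 250 bp, for Olfr genes (filled circles) and other autosomal CpGs (open squares), as mean and SD over 9 control libraries and the 5 of Dnmt1 KO from day 6 on. After Dnmt1 loss the Olfr points lie below the others up to 7 to 9 CpGs and above them at 15 or more, a wide class without matching of density inside it.

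Receptor genes were next compared with the sequence between them, with vomeronasal receptor genes and with other genes, without matching on CpG density. Inside the clusters, CpGs over 1 kb away from any annotated gene were at 17.4% ± 0.402 (SD, n = 5) in Dnmt1 KO from day 6 on and at 79.3% ± 2.26 (SD, n = 9) in control. Control receptor genes were above this sequence in 9 of 9 libraries, by 0.852 points on average (exact sign-flip p = 0.0039, adjusted p = 0.0073), by 1.78 points with gene bodies alone, and by 0.299 points (exact p = 0.1016) with 2 kb flanks. Receptor genes of Dnmt1 KO from day 3 on were below it in 5 of 7 libraries, with a mean of -0.315 points, which did not pass the test (exact sign-flip p = 0.125, adjusted p = 0.1354). Its direction depended on the processing, since it was 0.803 points with gene bodies alone, 1.00 with equal cluster weights, 0.384 without the largest cluster and -1.26 with 2 kb flanks (exact sign-flip p = 0.0156 each). Between genotypes this difference changed by -1.01 points on average over the days (exact permutation p = 0.0023, adjusted p = 0.0060). This change was -0.0588 points (exact p = 0.8133) once each cluster had the same weight. Of 26 alternatives, 25 kept direction and threshold, among them the one without the largest cluster. Vomeronasal receptor genes, of which 23190 CpGs were counted, were at 13.5% ± 0.770 (SD, n = 5), lower than receptor genes of the nose by 2.65 to 4.40 points in the 5 libraries. In control, the 2 families differed by 1.45 to 3.48 points in the same direction. The difference of Dnmt1 KO minus control between the families, 0.835 points (exact permutation p = 0.034, adjusted p = 0.0441), lost the threshold under 2 kb flanks (0.437 points, p = 0.1798 in the same exact test). It also lost it without any 1 of 6 libraries, with 0.603 points without either library of day 6, 0.672 without Dnmt1 KO day 1 replicate 1, and 0.764, 0.774 and 0.776 without replicate 1 of control days 1, 9 and 11. Permuting labels within day and replicate number lost it too, and 17 of 26 alternatives kept direction and threshold. Other autosomal genes were at 72.9% ± 2.69 (SD, n = 9) in control and at 25.8% ± 0.771 (SD, n = 5) in Dnmt1 KO. Against them receptor genes were higher by 6.21 to 8.62 points in control libraries and lower in Dnmt1 KO from day 6 on, with differences of -9.52 to -8.18 points (change between genotypes -12.2 points, exact permutation p = 0.00077, adjusted p = 0.0033).

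Within the receptor genes, the level was nearly even along the gene. Each 250 bp step from 1 kb before to 2 kb after the annotated start was at 78.1% to 82.6% in control. In Dnmt1 KO from day 6 on the steps lay between 13.6% ± 2.13 (SD, n = 5), in the step farthest upstream, and 18.7% ± 1.91, in the step from 500 to 750 bp. Other protein-coding genes, without cytosines of over 20 calls, had the usual dip at the start, with 9.93% in the first 250 bp of control genes and 3.70% in Dnmt1 KO. Coding sequence of receptor genes was above the rest of the region in both genotypes, with 81.9% ± 1.84 against 79.1% ± 2.41 (SD, n = 9) in control and 18.7% ± 0.690 against 16.0% ± 0.651 (SD, n = 5) in Dnmt1 KO. Coding sequence was higher in all libraries except control day 1 replicate 1. From day 6 on, coding sequence of Dnmt1 KO kept 22.8% of its control level and the rest kept 20.3%, a contrast that was not tested. Coding sequence and the rest were not matched on CpG density. Only the gap in points was compared between genotypes. The gap did not differ detectably between genotypes, with a mean of 0.228 points (exact permutation p = 0.7477), or -0.240 without control day 1 replicate 1 (exact p = 0.5039). Protein-coding receptor genes and receptor pseudogenes were at 17.3% ± 0.612 and 14.2% ± 1.00 (SD, n = 5) from day 6 on, and at 80.2% ± 2.07 and 79.6% ± 2.68 (SD, n = 9) in control. The difference of this gap between genotypes, 1.25 points, did not pass the test (exact permutation p = 0.0934). It was -0.459 points with gene bodies alone, 2.66 points without the largest cluster and 1.72 points without control day 1 replicate 2 (exact p = 0.0046). Of 26 alternatives, 23 kept direction and threshold.

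**Figure D3:**
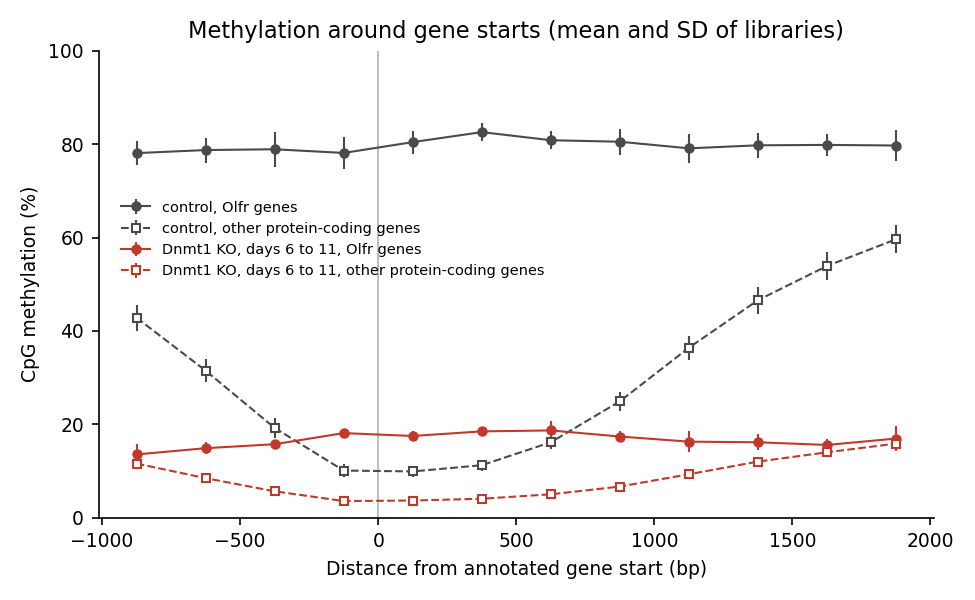
CpG methylation in percent against the distance in bp from the annotated start, in steps of 250 bp, as mean and SD over 9 control (grey) and 5 Dnmt1 KO libraries of days 6 to 11 (red). Olfr genes (filled) stay at 78.1% to 82.6% in control, and at 13.6% to 18.7% in Dnmt1 KO, whereas other protein-coding genes (open) dip at the start.

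Clusters were then compared with each other. The 39 clusters with at least 20 calls in every library held 1206 of the receptor genes. In all 39, the highest of the 5 Dnmt1 KO libraries of days 6 to 11 was below the lowest of the 9 control libraries. All autosomal CpGs together separated as well, with a lowest control library at 71.4% and a highest Dnmt1 KO library at 25.6%. The share of autosomal windows that separated was not counted, so nothing particular to the clusters is read from this. Control levels of the clusters ran from 71.6% to 85.4% with a median of 80.3%, and their Dnmt1 KO levels of days 9 and 11 from 9.66% to 35.1% with a median of 17.0%. Against the CpG-matched background of the 4 Dnmt1 KO libraries of days 9 and 11, 22 clusters with 1007 genes were lower and 2 clusters with 31 genes were higher (limma, adjusted p under 0.05 and at least 5 points). That was 56.4% of clusters called lower, where 24.2% of all 11999 clusters and autosomal windows of 200 kb were called lower, and 33.9% were called in either direction. The median difference was -6.36 points over clusters and -1.36 points over the windows. All of the 22 clusters were below background in the day 6 library, which the test did not use. How many of the windows called lower were also below it at day 6 was not counted. Nothing particular to the clusters is read from this either. In control, 4 clusters were called higher than background and 1 lower, which was 12.8% of clusters against 15.9% of clusters and windows, and 9.67% of those were called lower. Without control day 1 replicate 1, control day 3 replicate 2 or control day 11 replicate 1, 3 clusters were called in control.

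The cluster with the most genes was the 268 genes from Olfr987 to Olfr1274-ps on chromosome 2 (85171054 to 90241831). Its control libraries ranged from 77.2% to 83.6%, and the Dnmt1 KO libraries were at 73.2% and 74.7% at day 1, 26.1% and 26.8% at day 3, 12.4% at day 6, 10.5% and 12.3% at day 9, and 11.9% and 13.5% at day 11. The groups did not overlap, and the cluster differed from background at days 9 and 11 by -9.53 ± 0.635 points (SE) (limma, adjusted p = 3.2e-16), against a control difference of 0.54 ± 0.447 points. The 106 genes from Olfr543 to Olfr650-ps1 on chromosome 7 (109625287 to 111355523) flank the beta-globin genes and hold class I receptors, the class that is shared with fish. Its control libraries ranged from 79.0% to 87.5%, and Dnmt1 KO was at 74.7% and 75.8%, then 27.8% and 30.8%, 16.5%, 15.8% and 20.1%, and 15.7% and 16.9% in the same order of days. The comparison is of this 1 cluster with all other receptor genes, which include the neighbouring Olfr651 to Olfr692 (39 genes), where class I receptors lie too. The cluster exceeded the other receptor genes in control by 0.958 to 4.81 points, whereas from day 3 on it was lower in 5 of 7 Dnmt1 KO libraries. From day 6 on the means were alike, at 17.0% ± 1.80 in the cluster and 17.0% ± 0.501 in the other receptor genes (SD, n = 5). The change between genotypes, averaged over the days, was -2.76 points (exact permutation p = 0.0062, adjusted p = 0.0100), and -1.40 points (exact p = 0.0995) with 2 kb flanks.

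Of the other large clusters, 4 are given by their library ranges and by their difference from background. Olfr151 to Olfr986 on chromosome 9, with 97 genes, was at 13.2% to 17.1% in Dnmt1 KO from day 6 on and at 76.5% to 84.9% in control. Olfr90 to Olfr136 on chromosome 17, with 60 genes beside the major histocompatibility complex, had a control level of 71.6%, with libraries from 63.7% to 78.2%, and was at 14% to 18.1% in Dnmt1 KO. Without Olfr94, left out after seeing the data, its control level was 77.9%, with libraries from 69.7% to 83.3%, and 7 clusters were lower. Olfr94 held 486 of the 4907 control calls of this cluster. Olfr1442 to Olfr1505 on chromosome 19, with 46 genes, was at 7.59% to 16.9% against 70.3% to 83.4% in control. Olfr9 to Olfr827 on chromosome 10, with 58 genes, was at 6.51% to 13.4% against 71.8% to 79.9%. At days 9 and 11 these 4 clusters were below background, at -6.96 ± 1.04, -5.72 ± 1.19, -9.89 ± 1.67 and -11.8 ± 1.52 points (SE, limma).

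The extremes are given as a description, since they were chosen by these values. The 3 lowest were Olfr372 to Olfr374 on chromosome 8, with 3 genes and a difference from background of -15.1 ± 4.0 points, then Olfr9 to Olfr827, and Olfr172 to Olfr209 on chromosome 16, with 27 genes and -10.3 ± 1.89 points. In control these 3 clusters were at -6.92 ± 2.46 (limma, adjusted p = 0.0130), -3.40 ± 1.02 (adjusted p = 0.0035) and -0.42 ± 1.29 points from background. Olfr372 to Olfr374 held 39 to 86 calls per library, and its Dnmt1 KO libraries of days 9 and 11 were at 7.69%, 5.13%, 14.3% and 17.3%. The 3 highest were Olfr288 to Olfr279 on chromosome 15 (9 genes, 7.53 ± 1.81 points above), Olfr30 to Olfr311 on chromosome 11 (22 genes, 5.91 ± 1.55 points above) and Olfr462 to Olfr464 on chromosome 11 (3 genes, 5.49 ± 3.90 points above). Dnmt1 KO libraries of the first were at 35.7%, 36.5%, 31.3% and 29.7% at days 9 and 11, and in control it was 8.99 ± 1.14 points above background. The other two were above it in control by 8.11 ± 1.08 and 6.16 ± 2.25 points. These 3 clusters held 12.7, 9.24 and 14.9 CpGs per kb, compared with 4.05 in the cluster with the most genes.

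**Figure D4:**
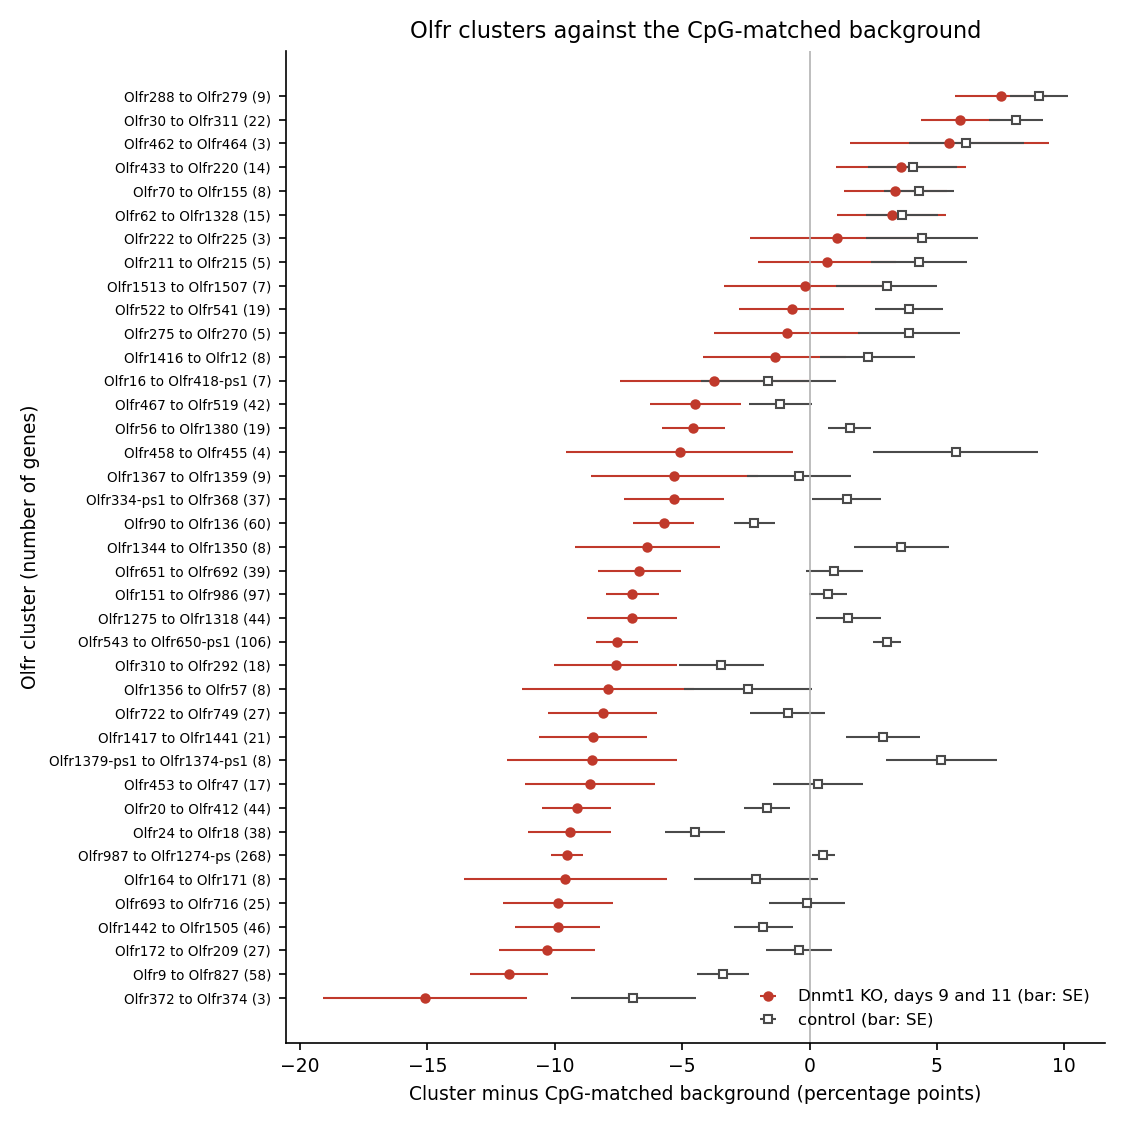
Difference in percentage points between each of the 39 tested Olfr clusters and its CpG-matched background in Dnmt1 KO of days 9 and 11 (red circles) and in control (grey squares), with SE bars; the number of genes stands beside each name. In Dnmt1 KO 31 clusters lie below 0, from -15.1 to 7.53 points, and control clusters lie between -6.92 and 8.99 points. Of the autosomal windows of 200 kb, 60.4% lay below their background in Dnmt1 KO of days 9 and 11.

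Across the 39 clusters, the difference from background in Dnmt1 KO went with that in control (Pearson's r = 0.787, Spearman's rho = 0.736) and with CpGs per kb (r = 0.649, rho = 0.597), and less with the number of genes (r = -0.305, rho = -0.428). These are descriptions over clusters that share libraries and calls. The median was -7.55 points in the 23 clusters of 10 or more genes and -2.55 points in the 16 smaller ones. Levels of the receptor genes at days 9 and 11 also went with those of the sequence between them (r = 0.566, rho = 0.468, 39 clusters). Receptor genes were the lower of both in 21 clusters, among them the cluster with the most genes, where they were at 12.1% against 16.0%. In Olfr288 to Olfr279 they were at 32.5% against 25.4%.

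**Figure D5:**
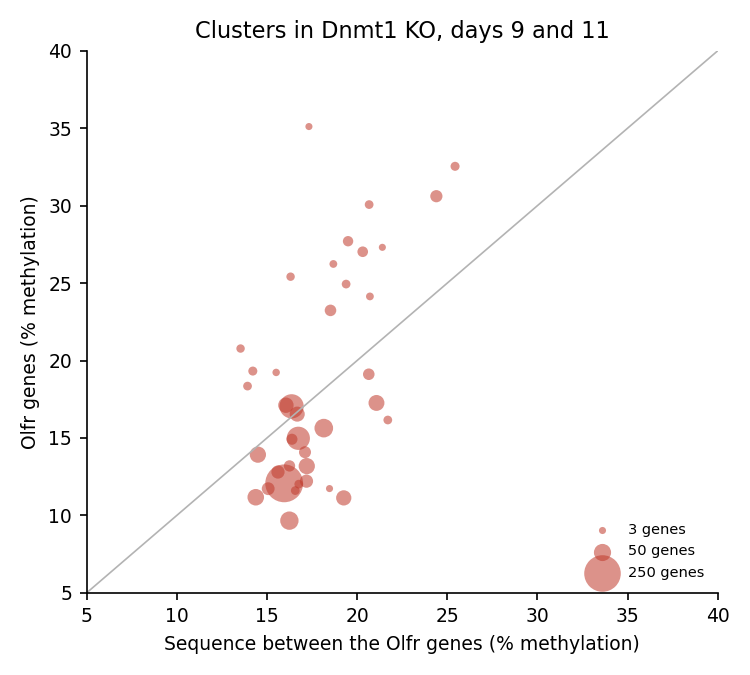
CpG methylation in percent of the Olfr genes of a cluster against that of the sequence between them, pooled over the 4 Dnmt1 KO libraries of days 9 and 11, for 39 clusters, with the point size giving the number of genes and the line marking equal levels. The cluster with the most genes lies below the line, at 12.1% against 16.0%, and Olfr288 to Olfr279 lies above it, at 32.5% against 25.4%.

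Single genes could be tested only where they had at least 5 calls in every library, which left 145 of the 1243 receptor genes, with a median of 36 CpGs against 15 over all of them. At day 1, 1 of the 145 was called, where 2.55% of all 22950 genes were called and 2.51% were called lower (quasi-binomial model with limma's moderation, adjusted p under 0.05 and at least 10 points). At day 3 it was 111 (76.6%, background 84.4%), at day 6 it was 115 (79.3%, background 85.6%), at day 9 it was 137 (94.5%, background 89.6%), and at day 11 it was 128 (88.3%, background 87.7%, of which lower 87.6%). All of these calls were lower in Dnmt1 KO. The shares called were below the background at days 1, 3 and 6 and above it at days 9 and 11, and no test compared them. With a minimum of 1 call in every library the shares were below the background at days 9 and 11 too. The median difference at day 11 was -58.4 points in the receptor genes tested and -40.5 points over all genes. The gene called at day 1 was Olfr56 on chromosome 11 (48792391 to 48948889), whose annotated model runs over 156 kb and held the most calls of the family. It was at 84.3% and 78.6% in control and at 66.5% and 66.2% in Dnmt1 KO at day 1, a difference of -14.9 points (adjusted p = 0.0124). It was no longer called at day 1 when control replicate 1, Dnmt1 KO replicate 1 or Dnmt1 KO replicate 2 of that day was left out.

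Of the receptors with known roles, Olfr78 had 1031 calls. Its control libraries ranged from 70.6% to 91.8%, and its Dnmt1 KO libraries from 4.35% to 18% from day 6 on, without overlap. Pooled over libraries it was at 81.6% in control (95% exact interval 77.9 to 84.9) and 11.5% in Dnmt1 KO from day 6 on (7.86 to 15.9). Olfr151, the receptor M71, was at 77.6% and 16.9% (12.1 to 22.7), and Olfr544, described as a receptor for azelaic acid, was at 83.2% and 33.9% (25.7 to 42.8). The Dnmt1 KO libraries of Olfr544 spread widely from day 6 on, from 15.6% (5 of 32 calls) to 63.6% (7 of 11 calls). Olfr1507 (MOR28) was at 83.8% and 24.5% (13.3 to 38.9) and Olfr90 at 70.9% and 29.5% (20.3 to 40.2). Without the day 6 library, Olfr1507 was at 17.5% on 40 calls in Dnmt1 KO of days 9 and 11. Receptors under the call minimum had wider intervals, with 9.26% (3.08 to 20.3) in Olfr16, 9.09% (1.92 to 24.3) in Olfr17, 24.3% (11.8 to 41.2) in Olfr73 and 16.2% (6.19 to 32.0) in Olfr124 in Dnmt1 KO. The value of Olfr124 rested on the day 6 library, with 4 of 10 calls methylated, and was 7.41% on 27 calls at days 9 and 11. The intervals are Clopper-Pearson intervals that cover counting error only.

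Besides Olfr56 and Olfr78, the most calls fell in Olfr288 and Olfr287, whose annotated models overlap, and in Olfr94. Olfr288 was at 85.7% in control and 35.6% (32.1 to 39.2) in Dnmt1 KO from day 6 on, and Olfr287 was at 83.7% and 38.0% (32.8 to 43.4). Olfr94 on chromosome 17 (37333653 to 37334956) was the only one of the 145 tested genes under 50% in control, with 14.6% (11.6 to 18.1). Control libraries of Olfr94 ran from 4.71% to 50% on 8 to 133 calls, and Dnmt1 KO libraries from day 6 on from 0% to 9.30% on 12 to 46 calls, or 3.03% pooled (0.991 to 6.93). Its region held 111 CpGs. The lowest tested genes in Dnmt1 KO at days 9 and 11, chosen by that value, were Olfr1079 (1.54%), Olfr1355 (2.63%) and Olfr592 (2.86%), and the highest were Olfr284 (46.4%), Olfr317 (46.8%) and Olfr314 (48.0%). Of these 6 genes Olfr317 and Olfr314 belong to the cluster Olfr30 to Olfr311, and Olfr284 to Olfr288 to Olfr279.

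The partners of the receptors in the sensory neuron were read from the same gene fit. Of 14 genes of signalling and receptor transport, all of which were tested, 1 was called lower at day 1, 12 at day 3, and 13 at each of days 6, 9 and 11. Over all genes tested, 2.51%, 84.4%, 85.6%, 89.6% and 87.6% were called lower at these days, so nothing particular to the list is read from its counts. The gene called at day 1 was Slc24a4, an exchanger that ends the odour response, with -15.1 points. Levels in Dnmt1 KO from day 6 on were 20.5% in Gnal, the olfactory G protein, 29.0% in Adcy3, the cyclase it acts on, 25.8% in Cngb1, a subunit of the channel opened by cyclic AMP, and 26.6% in Ano2, the chloride channel behind it. Rtp1, which helps receptors reach the membrane, was at 82.6% in control and 32.9% in Dnmt1 KO and was not called at day 11 (-31.0 points, adjusted p = 0.0683). Of 11 genes that control the choice or silencing of receptors, 0 were called at day 1, 9 at day 3, 10 at days 6 and 9 and 11 at day 11. The shares over all genes are those given above, and nothing particular to this list is read from its counts either. Lhx2 and Emx2, homeodomain factors of receptor promoters, were at 32.1% and 35.3% in control and 11.4% and 7.22% in Dnmt1 KO. Ebf1 was at 75.9% and 27.8%, and Lbr, the lamin B receptor, at 62.0% and 28.6%. The median of the list was 26.8% for signalling and 23.3% for receptor choice.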

How the data were processed

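Whole-genome bisulfite sequencing gave CpG calls in 9 control and 9 Dnmt1 KO libraries. According to the methods, the authors trimmed paired reads with Trim Galore, aligned them to NCBIM37 with Bismark (0.12.3 in the submitters' processing notes, another version in the methods), removed duplicates and called CpGs. Per covered cytosine, the deposited files list counts of methylated and of unmethylated calls and the percent methylated that follows from these counts. Only the counts were used here. The deposited files list cytosines with a single call, and the minimum of reads per CpG in the authors' own analysis was not applied here. Any loss of reads from near-identical receptor genes in alignment would lower the calls of such genes.

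Calls at CpGs of NCBIM37 were added up over both strands, over genes with 1 kb flanks, over clusters (genes with at most 200 kb between them) and over libraries. Where the coding and other classes overlapped, coding CpGs were those in annotated coding exons. The CpG-matched background weighted all other autosomal CpGs by the receptor calls in each class of CpGs within 250 bp. Measures per library were tested with two-sided exact permutation of genotype labels within days (2592 arrangements) or exact sign flips, and 13 tests were adjusted by Benjamini-Hochberg. Exact sign flips could give no p under 0.0039 for 9 libraries or under 0.0156 for 7. Genes with 5 or more calls in each library entered a quasi-binomial fit (R 4.3.3) moderated with limma 3.58.1. Clusters and 200 kb windows with at least 20 calls were tested against their background with limma. All genotypes and days shared the spread, so lone day 6 libraries were assumed to vary like the others. A gene was called at adjusted p under 0.05 and 10 points, a cluster at 5 points. edgeR 4.0.16 served as an alternative on the counts. The fits were tested on simulated data with known changes.

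Libraries held 7190722 to 11158414 calls, about 0.343 to 0.534 per autosomal CpG, so single CpGs were not compared. Replicate numbers were not used for pairing. Genes, clusters and lists, and the alternatives tried, were chosen with earlier results of these data known. The genes named were 10 receptors with known roles (Olfr160 was not found under that symbol), the 5 with the most calls, the 3 highest and lowest in Dnmt1 KO at days 9 and 11, those called at day 1 or higher in Dnmt1 KO, which was none beyond Olfr56, and the partners of receptors. The clusters named were the 6 with the most genes, the one around the beta-globin genes and the 3 highest and lowest. The start window of 1 further receptor is not reported here. The 8 receptor genes on the X chromosome were not used.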

Additional observations from a re-analysis of the deposited data

Results flagged for a closer look

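In the means of each day, the gap between coding sequence and the rest of the receptor regions differed between genotypes in opposite directions at different days. Over all days the gap in points did not differ detectably (exact permutation p = 0.7477). At day 1 Dnmt1 KO minus control was 2.08 points, with overlapping libraries (3.70 and 3.75 points in Dnmt1 KO, -0.689 and 3.99 points in control), and at day 9 it was -0.0312 points. It was 1.31 points at day 3, where both Dnmt1 KO libraries (3.14 and 4.05 points) lay above both control libraries (1.85 and 2.73 points). It was -0.362 points at day 6, with 1 library per genotype, and -1.85 points at day 11, where both Dnmt1 KO libraries (1.71 and 3.12 points) lay below both control libraries (3.80 and 4.73 points). The difference between days was not tested, and within a day 2 libraries against 2 cannot give an exact permutation p under 0.333.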

How the results depend on the processing

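Calls were 0.343 to 0.534 per autosomal CpG, so 24 of 63 clusters and 1098 of 1243 receptor genes were too shallow to test.

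The level, the difference from the CpG-matched background (-6.22 to -4.27 points over 27 alternatives) and that from other genes kept direction and threshold in every alternative run, including the one without the 4 Olfr genes longer than 20 kb, which was added after seeing the data. The control difference from the matched background ran from 0.578 to 2.41 points over 17 alternatives, and that from the sequence between genes from 0.299 to 1.78 points over 16. Clusters apart from background in Dnmt1 KO, in either direction, numbered 19 to 28 over 24 alternatives. The clusters tested and the shares of clusters and windows called under each alternative are not given here. Nothing particular to the clusters is therefore read from these counts, or from the counts of control clusters below.

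With gene bodies alone, the gap between protein-coding genes and pseudogenes was -0.459 points and the Dnmt1 KO difference from the sequence between genes 0.803 points. The latter was 1.00 with equal cluster weights, 0.384 without the largest cluster and -1.26 with 2 kb flanks, with exact p = 0.0156 in each of the 4. With 2 kb flanks the vomeronasal difference was 0.437, that of the beta-globin cluster from other receptor genes -1.40 and the control difference from the sequence between genes 0.299. Equal weights gave -0.0588 for the difference from that sequence between genotypes and 0.0405 for coverage (log2). Leaving out CpGs near another gene gave 0.772 for the vomeronasal difference, and leaving out the largest cluster gave 2.66 for the pseudogene gap.

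Receptor genes called at day 1 numbered 2 with at least 1 call, with gene bodies alone, with limma on percent and with edgeR. At days 3, 9 and 11 they numbered 433, 674 and 642 of 865 tested with at least 1 call, 36, 37 and 39 of 39 with at least 10 calls, and 38, 43 and 45 of 45 with gene bodies alone. The shares with at least 1 call were 50.1%, 77.9% and 74.2%, where 75.5%, 84.0% and 81.1% of all genes were called. For the other settings the shares over all genes are not given here, so nothing about the family is read from those counts. Control clusters apart from background numbered 8 with at least 10 calls. For other changes the cause was not tested.

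Leaving out 1 library gave 0.603 to 0.997 points for the vomeronasal difference, -0.240 to 0.696 for coding minus flank, 0.775 to 1.72 for the pseudogene gap, 0.0408 to 0.0955 for coverage, 0 to 1 receptor genes called at day 1 and 3 to 6 control clusters. The vomeronasal difference missed the threshold without control day 1, 9 or 11 replicate 1, Dnmt1 KO day 1 replicate 1 or a day 6 library. Coding minus flank turned negative without control day 1 replicate 1.

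Titles give control and Dnmt1 KO libraries the same replicate numbers. Deviations of replicate 1 from its group mean correlated between genotypes over 39 clusters at 0.0551, -0.318, 0.112 and 0.0610 at days 1, 3, 9 and 11. With as few as 20 calls required per cluster and library, such values cannot decide whether libraries of the same number were paired. The replicate block left the vomeronasal difference at 0.835 points with exact p = 0.0586 and changed no other call of the measures per library. Receptor genes called numbered 1, 103, 131 and 127 at days 1, 3, 9 and 11 with it, against 1, 111, 137 and 128 without it. The share of all genes called with the block is not given here.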
